A study of Mus musculus with 2 samples.

Results

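Subunits of potassium, sodium and calcium channels were followed in 2 samples of embryonic mouse heart, by the brightness of their probes on Illumina bead arrays. The genes were those whose symbol begins with Kcn, with Cacn or with Hcn and a digit, or consists of Scn, a number and the letter a or b, with Kcnj8 and Kcnj11 left out. The array table held 122 such genes, read by 255 probes, among 19057 named genes. Of the 122, 68 encode potassium channel pores, 15 potassium auxiliary subunits, 23 calcium channel subunits, 10 sodium channel subunits and 3 pacemaker channels of the Hcn type. The other 3 carry a Kcn name but are not subunits, among them the long noncoding RNA gene Kcnq1ot1. One sample was RNA of lacZ-positive epicardial cells isolated at embryonic stage E11.5, and the other was RNA of all cells dissociated from hearts of that stage. Both came from mice with the genotype Tcf21lacZ, which carry lacZ at the locus of the transcription factor gene Tcf21, and their strain background was a mix (C57BL/6, 129, CD-1). The labels give neither the method of isolation nor the number of hearts in a sample, and the total heart sample includes the epicardium. Each sample was measured on 1 array, which limits the precision of every value. There is thus no test between the groups, and the errors given are standard errors over the beads of a probe on an array, not over animals. With 1 array of mixed RNA per group, fewer cells of a type and less RNA per cell cannot be told apart.

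Ion channels set the electrical state of a cell. Pore subunits of voltage-gated sodium and calcium channels let cations in and drive the upstroke and plateau of the cardiac action potential, potassium channels carry the current that ends it and holds the resting potential, and Hcn channels carry pacemaker current. Auxiliary subunits make no pore of their own but alter how pores are trafficked, opened and closed. In the embryonic heart the working current is that of cardiomyocytes, while the epicardium is a mesothelial sheet that covers them and sends out mesenchymal cells.

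The arrays had median raw intensities of 63.5 for lacZ-positive cells and 57.6 for total heart with 43 beads for the median probe of either array, and 35.8% of probes on the lacZ-positive array and 34.3% on the total heart array were detected, that is, had a detection p-value under 0.01 against control probes. Tcf21 had a normalized log2 signal of 11.44 in lacZ-positive cells and 10.10 in total heart. Of 15 epicardial and mesothelial markers, 14 were on the table and 11 were detected on at least 1 array, of which 9 were at least 2-fold higher in lacZ-positive cells and 0 lower. The defining marker Tbx18 was not detected on either array. Cardiomyocyte markers were still detected in lacZ-positive cells, for 16 of 16 sarcomere genes on the table, of which 12 were at least 2-fold lower than in total heart. Their summed normalized signal was 102760 in lacZ-positive cells and 218039 in total heart, and none of the 16 was at background. Of 10 detected erythroid markers, all 10 were at least 2-fold lower, 9 were still detected in lacZ-positive cells, and the summed signal was 12034 in lacZ-positive cells against 57857 in total heart. For leukocytes and platelets 6 of 8 detected markers were lower, 0 were higher, and the sums were 1141 in lacZ-positive cells and 3253 in total heart. The lower ones were the platelet genes Pf4, Ppbp, Itga2b, Gp9 and Gp1bb and the leukocyte gene Lyz2. The leukocyte genes Csf1r and Cx3cr1 were within 2-fold, at log2 ratios of 0.21 and -0.28, and Ptprc was not detected. Endothelial markers had 2 of 11 lower and 0 higher, with sums of 11844 in lacZ-positive cells and 11424 in total heart. Smooth muscle and pericyte markers had 2 of 7 lower, 0 higher, and sums of 19699 in lacZ-positive cells and 30522 in total heart. Neuron and neural crest markers were detected for 4 of 8 genes, with 0 past 2-fold once bounds are used and sums of 473 in lacZ-positive cells and 425 in total heart. The part of these cells in the channel values was not tested.

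Most channel genes gave no signal above background. A probe was detected on at least 1 array for 33 of the 122 genes (27.0%), where the share of all named genes was 51.0%. Of the 33 genes, 19 were detected on both arrays, 5 on the lacZ-positive array only and 9 on the total heart array only. Over all 9713 genes analysed, 5.76% were detected on the lacZ-positive array only and 3.78% on the total heart array only. The detected channel genes were also dim, with a median of their mean log2 signals of 6.54 where that of all genes analysed was 8.33.

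Among the 33 detected channel genes, 4 had measured ratios at least 2-fold higher in lacZ-positive cells, 10 at least 2-fold lower and 19 within 2-fold. A gene not well above background on an array has only a bound there, and with such genes at their bounds 3 were at least 2-fold higher and 8 lower, beside 3.29% and 5.48% of all genes analysed. Bounds, given below as "at least", hold for the main processing only and leave out bead error, so other settings can give smaller differences. By measured ratios, 3.82% of all genes analysed were past 2-fold upward and 6.44% downward, and among genes as dim as the middle range of the channel genes the shares were 4.81% and 8.86%. Passing the filter through 1 array alone favours genes that differ, so the counts were also taken over the 19 genes with a probe detected on both arrays, by such probes only. There, 3 were at least 2-fold higher and 4 at least 2-fold lower, beside 3.30% and 5.15% of all genes so measured. The median log2 ratio, lacZ-positive minus total heart, was -0.35 over the 33 genes and 0.04 over all genes analysed, and -0.27 over the 33 with genes below background on an array set at the lowest detected signal. The filter through 1 array bears on this median too. Over the 19 genes, by probes detected on both arrays, it was -0.03, beside 0.04 over all genes so measured. By measured ratios the channel genes past 2-fold were 12.1% upward and 30.3% downward, and both directions held genes detected on both arrays. With no normalization between arrays the split over the 33 was 8 higher and 9 lower, beside 10.5% and 3.92% of all genes analysed. With scale normalization it was 6 and 9, beside 8.42% and 4.32%.

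**Figure D1:**
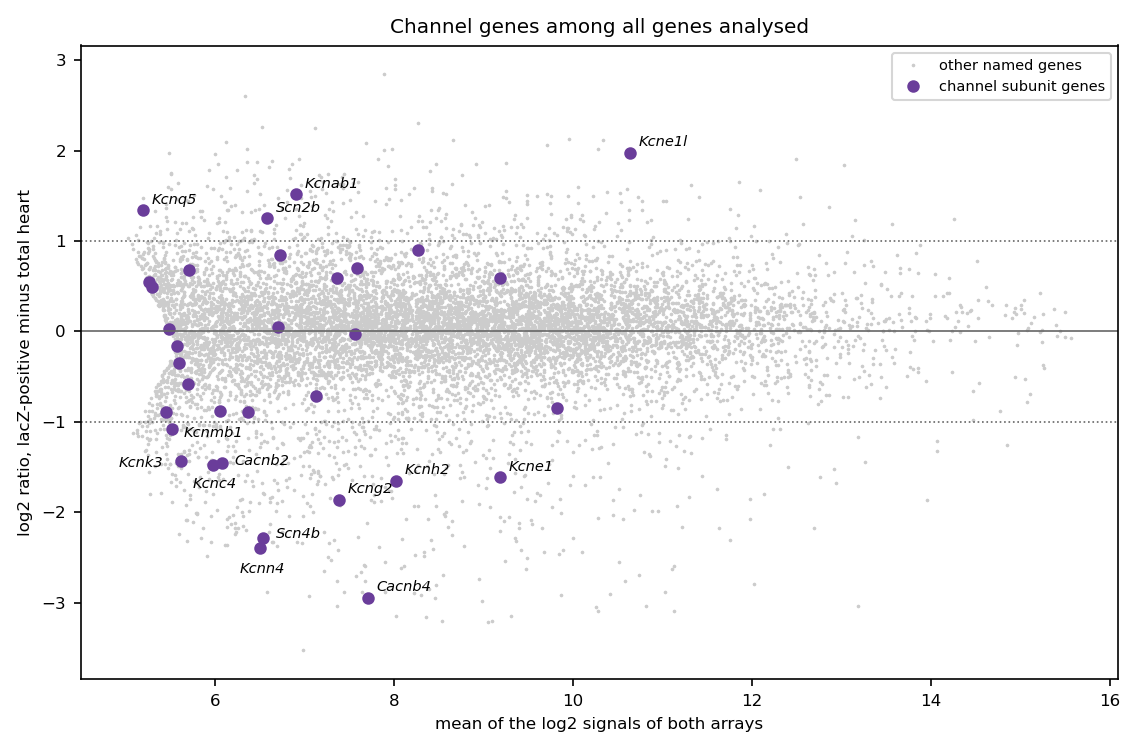
Log2 ratio of lacZ-positive cells over total heart (vertical axis, log2 units) against the mean log2 signal of both arrays (horizontal axis) for each of 9713 genes, with the 33 channel subunit genes as large points and those with measured ratios past 2-fold named. Dotted lines mark 2-fold, and the channel genes spread from -2.94 for Cacnb4 to 1.98 for Kcne1l at mostly low signal.

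Pore subunits of potassium channels were detected for 17 of 68 genes, with a median log2 ratio of 0.02, or -0.15 with bounds. By measured ratios 1 gene was at least 2-fold higher and 5 lower, beside 3.82% and 6.44% of all genes analysed. With bounds 0 were higher and 4 lower, beside 3.29% and 5.48%. The voltage-gated pores, 8 of 35 detected, held 4 of the 6 measured ratios past 2-fold. Kcng2 (gene ID 240444) encodes a silent subunit that forms channels only together with other voltage-gated subunits. Its raw intensity was 136.0 ± 5.67 in lacZ-positive cells and 312.0 ± 11.1 in total heart (bead SE), and it was 3.63-fold lower (log2 ratio -1.86, bead SE 0.10). Kcnh2 (gene ID 16511), the pore of the rapid delayed rectifier current that repolarises cardiomyocytes, had raw intensities of 203 ± 8.12 in lacZ-positive cells and 430 ± 20.8 in total heart. It was 3.14-fold lower, at a log2 ratio of -1.65 ± 0.11 (bead SE), and its second detected probe gave -1.38. Both genes were detected on both arrays and were lower in lacZ-positive cells.

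Kcnc4 (gene ID 99738), a fast-inactivating voltage-gated channel, had a raw intensity of 77.8 ± 3.92 in lacZ-positive cells, not well above background, against 126 ± 4.62 in total heart, and was at least 2.33-fold lower. Its measured log2 ratio was -1.48, or -0.89 with the authors' processed values, which is under 2-fold. Kcnd2, which carries transient outward current in rodent myocardium, stood at a log2 ratio of -0.88 ± 0.17 (bead SE), within 2-fold. Kcna6, a delayed rectifier of the Shaker family, lay on the other side at 0.70 ± 0.10, and its second detected probe gave the same rounded ratio of 0.70. Kcnq5 (gene ID 226922), a slowly activating channel known from neurons and smooth muscle, had a raw intensity of 102 ± 5.03 in lacZ-positive cells and 49.0 ± 2.03 in total heart, where it was not well above background. Its measured log2 ratio of 1.34 counted it as past 2-fold, but the bound was only at least 1.17-fold higher. The relatives of Kcnh2 were too dim to show a gap of its size. Kcnh6 had raw intensities of 84.1 ± 3.48 in lacZ-positive cells, not well above background, and 83.3 ± 3.47 in total heart. Its log2 ratio was -0.35 ± 0.15 (bead SE), and -0.08 with no normalization between arrays. Kcnh7, detected in lacZ-positive cells only, lay too near background for a fold.

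Tandem-pore potassium channels, which give background current that holds the resting potential, were detected for 5 of 14 genes, of which 3 were detected on both arrays. Kcnk5, a channel sensitive to external alkali, had raw intensities of 514 ± 17.3 in lacZ-positive cells and 230 ± 10.2 in total heart, a log2 ratio of 0.90 ± 0.09 (bead SE), just under 2-fold. Kcnk6 had 855 ± 32.0 in lacZ-positive cells and 442 ± 14.5 in total heart, a log2 ratio of 0.59 ± 0.08. Kcnk2, a stretch-sensitive channel, was detected in lacZ-positive cells only and lay too near background for a fold, and Kcnk1 stood at 0.05 ± 0.15. Kcnk3 (gene ID 16527) lay on the other side. It is an acid-sensitive channel of the heart and lung circulation and had a raw intensity of 67.5 ± 3.08 in lacZ-positive cells, not well above background, against 106 ± 3.99 in total heart, at least 1.79-fold lower. Kcnk6 was higher in lacZ-positive cells by both of its detected probes, the second probe of Kcnk5 was detected in lacZ-positive cells only, and the tandem-pore group had a median of 0.55, or 0.05 with bounds.

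Inward rectifiers were detected for 2 of 11 genes, each on 1 array. Kcnj2, the main resting potassium channel of ventricular muscle, had a raw intensity of 111 ± 6.44 in lacZ-positive cells and 72.1 ± 4.86 in total heart, where it was not well above background, so that it was at least 1.32-fold higher. Kcnj5, an atrial channel opened by acetylcholine through G proteins, had 70.6 ± 4.40 in lacZ-positive cells, not well above background, against 87.4 ± 5.33 in total heart, also at least 1.32-fold apart but lower. Among calcium-activated channels, 2 of 8 of the class were detected. Kcnn4 (gene ID 16534), the intermediate-conductance channel known from red cells and lymphocytes, had a raw intensity of 80.3 ± 5.31 in lacZ-positive cells, not well above background, against 215 ± 9.64 in total heart. By its bound it was at least 4.60-fold lower. Its measured log2 ratio was -2.39, or -1.60 with the authors' processed values. At least 2-fold lower were also all 10 erythroid, 12 of 16 sarcomere and 6 of 8 leukocyte and platelet markers. Among those 6, Lyz2 was the only leukocyte gene. The part of erythroid, muscle, leukocyte and platelet cells in the value of Kcnn4 was not tested. Kcnn1, a small-conductance channel known from neurons, was detected in lacZ-positive cells only and lay too near background for a fold.

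**Figure D2:**
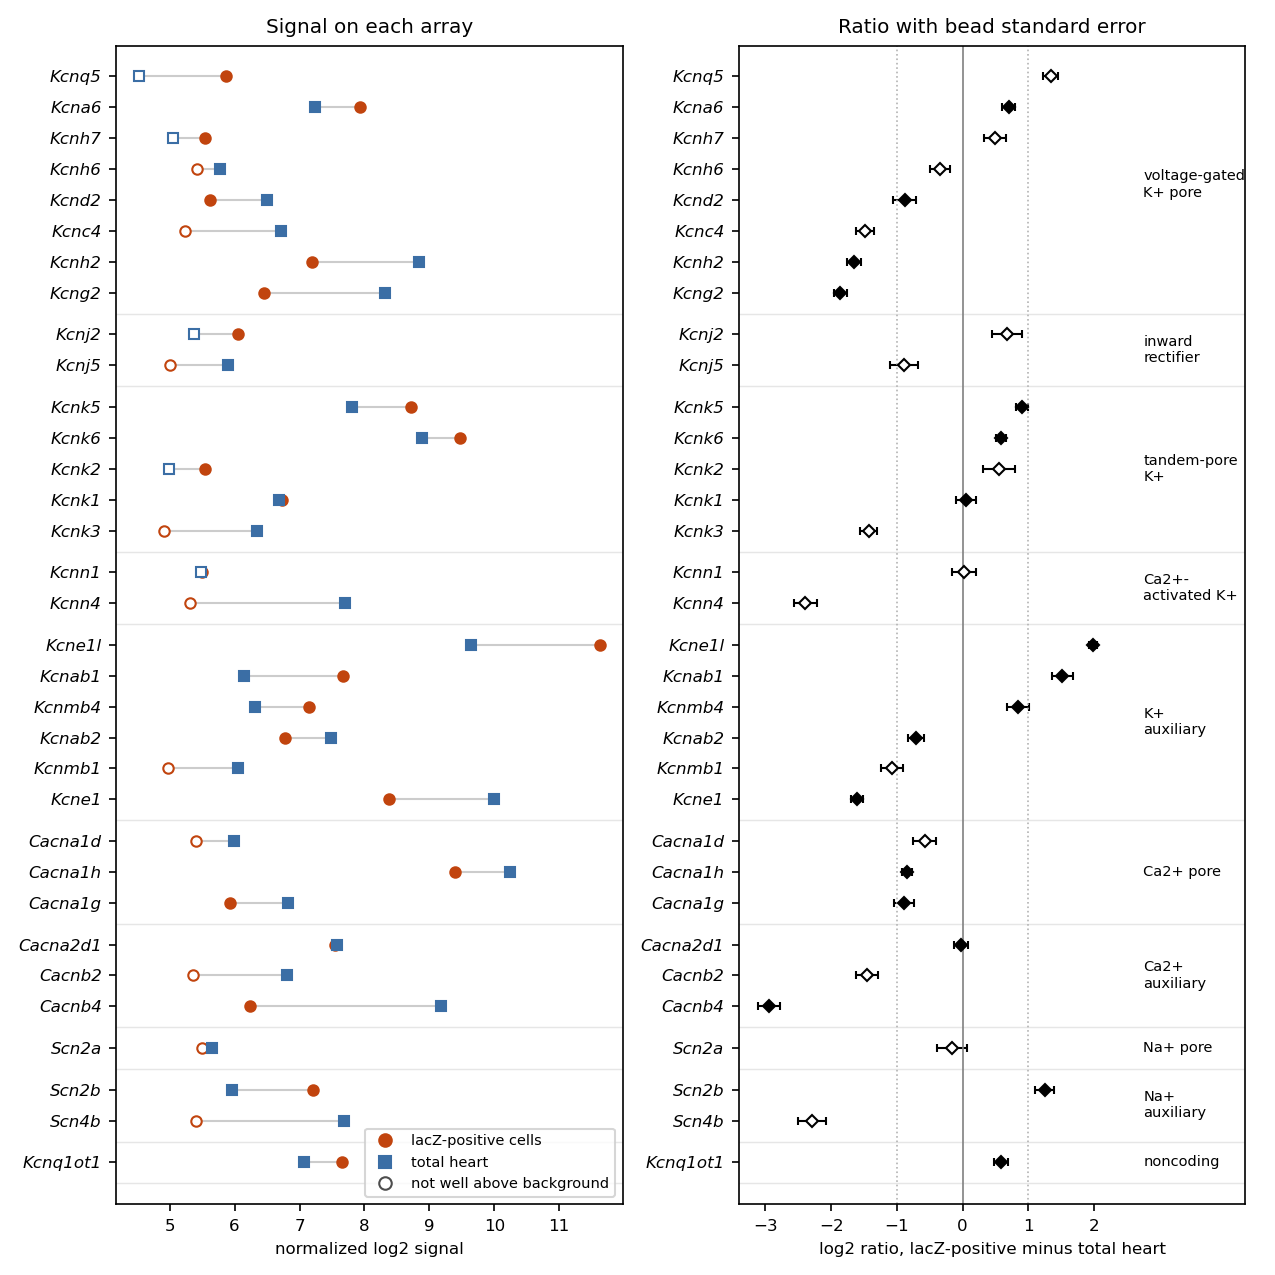
Left, normalized log2 signal of each of the 33 detected channel genes in lacZ-positive cells (circles) and total heart (squares), open where the probe was not well above background. Right, log2 ratio of lacZ-positive cells over total heart with bead standard errors, by channel class and from highest to lowest within a class, open where 1 of the arrays was not well above background. Within the potassium and sodium auxiliary classes the ratios fall on both sides of 0, while all 6 calcium ratios lie below 0, that of Cacna2d1 at -0.03 (0.35 with no normalization between arrays, 0.28 with scale normalization, 0.15 as a mean over probes).

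Auxiliary subunits of potassium channels were detected for 6 of 15 genes, with a median log2 ratio of 0.07, or 0.15 with bounds. Each of the 3 families with detected genes had a member on each side of 0. In the Kcne family, single-span proteins that sit beside the pore, Kcne1l (gene ID 66240, also called Kcne5) and Kcne1 went opposite ways. Kcne1l had a raw intensity of 3603 ± 93.4 in lacZ-positive cells and 721 ± 27.0 in total heart (bead SE over 52 and 42 beads). It was 3.94-fold higher (log2 ratio 1.98, bead SE 0.06) and ranked 16 from the top of the 9713 genes analysed. Kcne1 (gene ID 16509), which with Kcnq1 forms the slow delayed rectifier of the heart, had raw intensities of 414 ± 15.7 in lacZ-positive cells and 903 ± 37.2 in total heart, 3.05-fold lower at a log2 ratio of -1.61 ± 0.09. The other 3 probes of Kcne1 were not detected on either array, and Kcne1l has 1 probe.

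The cytoplasmic beta subunits of Shaker-type channels also lay on both sides of 0, but only Kcnab1 was past 2-fold. Kcnab1 (gene ID 16497) had raw intensities of 267 ± 11.2 in lacZ-positive cells and 96.7 ± 6.00 in total heart, 2.86-fold higher, with log2 ratios of 1.51 and 1.33 from its 2 detected probes. Kcnab2 had 161 ± 7.50 in lacZ-positive cells and 189 ± 8.37 in total heart, a log2 ratio of -0.71 ± 0.12 within 2-fold. The beta subunits of the large-conductance calcium-activated channel lay on both sides of 0 too, with Kcnmb4 within 2-fold. Kcnmb4, known from neurons, had raw intensities of 198 ± 10.3 in lacZ-positive cells and 104 ± 6.97 in total heart, with log2 ratios of 0.84 and 0.70 from its 2 probes. Kcnmb1 (gene ID 16533), known from smooth muscle, had 69.6 ± 3.04 in lacZ-positive cells, not well above background, and 93.1 ± 5.26 in total heart, at least 1.47-fold lower. The pore that these beta subunits join, Kcnma1, was not detected on either array, and none of 4 Kcnip genes was.

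Calcium channel subunits had a median log2 ratio of -0.87 over 6 detected genes of 23. None of the 6 was at least 2-fold higher and 2 were lower, beside 3.82% and 6.44% of all genes analysed. All 6 ratios were below 0, except that the ratio of Cacna2d1, which is -0.03, was 0.35 with no normalization between arrays, 0.28 with scale normalization and 0.15 as a mean over its probes. Cacnb4 (gene ID 12298), a cytoplasmic beta subunit best known from the brain, had raw intensities of 122 ± 7.45 in lacZ-positive cells and 532 ± 36.1 in total heart, over 22 and 23 beads. It was 7.70-fold lower (log2 ratio -2.94, bead SE 0.17) and ranked 16 from the bottom of the 9713 genes. Its other 3 probes were not detected on either array, so that 1 probe carries this value.

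Cacnb2 (gene ID 12296), the main beta subunit of the cardiac L-type channel, was read by 3 detected probes that disagreed. The one with the highest mean signal had raw intensities of 81.7 ± 4.01 in lacZ-positive cells, not well above background, and 132 ± 8.04 in total heart, at least 2.47-fold lower, while the other probes, detected on both arrays, gave log2 ratios of -0.51 and -0.13. Of the pores, the T-type genes Cacna1h and Cacna1g, whose low-threshold current is prominent in embryonic myocardium, both stood below 0. Cacna1h had raw intensities of 812 ± 31.4 in lacZ-positive cells and 1069 ± 35.9 in total heart and a log2 ratio of -0.85 ± 0.08 (bead SE). Cacna1g had 105 ± 5.13 in lacZ-positive cells and 133 ± 7.95 in total heart and a log2 ratio of -0.89 ± 0.15. Both were within 2-fold. Cacna1d, an L-type pore of pacemaker cells, was not well above background in lacZ-positive cells and by its bound was at least 1.40-fold lower. With no normalization between arrays its log2 ratio was only -0.30. The ventricular L-type pore Cacna1c was not detected by any of 7 probes on either array, and its brightest probe had raw intensities of 76.7 in lacZ-positive cells and 68.2 in total heart. None of 8 Cacng genes, whose products are calcium channel gamma subunits and their relatives, was detected.

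Sodium channel subunits were detected for 3 of 10 genes, and the auxiliary beta subunits Scn2b and Scn4b, single-span proteins of the immunoglobulin fold, lay on opposite sides of 0. Scn2b (gene ID 72821) had raw intensities of 204 ± 9.68 in lacZ-positive cells and 89.6 ± 4.20 in total heart. It was 2.38-fold higher, with a log2 ratio of 1.25 ± 0.15 (bead SE), and its second probe, detected in lacZ-positive cells only, gave 1.01. Scn4b (gene ID 399548) had 83.3 ± 6.00 in lacZ-positive cells, not well above background, and 213 ± 15.2 in total heart, at least 4.54-fold lower. Of the pores only Scn2a, known from neurons, was detected, with 86.8 ± 6.77 in lacZ-positive cells, not well above background, and 80.0 ± 4.13 in total heart. Its log2 ratio of -0.16 was smaller than its bead SE of 0.23, and its sign flipped to 0.10 with no normalization between arrays and 0.02 with scale normalization. The 3 detected sodium genes thus gave a ratio past 2-fold in each direction and one near 0.

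Scn2b and Scn4b are next to each other on chromosome 9 among protein-coding genes of the RefSeq annotation, and no other detected channel genes are such neighbours. Their promoters are shown here with those of Kcne1l and Kcnn4, since these 4 genes stand near the ends of the range and have 1 start site each in the RefSeq table of build GRCm38.p6. They were chosen after their values were seen. Each sequence runs 5′ to 3′ on the strand of the gene, from 250 bases before the start of the gene to 50 after it, and capitals mark E-boxes, CANNTG, the motif bound by basic helix-loop-helix factors such as Tcf21. Scn2b lies at chr9:45117626-45117925 on the plus strand, Scn4b at chr9:45138374-45138673 on the plus strand, Kcne1l at chrX:142306149-142306448 on the minus strand and Kcnn4 at chr7:24370013-24370312 on the plus strand.
Kcne1l: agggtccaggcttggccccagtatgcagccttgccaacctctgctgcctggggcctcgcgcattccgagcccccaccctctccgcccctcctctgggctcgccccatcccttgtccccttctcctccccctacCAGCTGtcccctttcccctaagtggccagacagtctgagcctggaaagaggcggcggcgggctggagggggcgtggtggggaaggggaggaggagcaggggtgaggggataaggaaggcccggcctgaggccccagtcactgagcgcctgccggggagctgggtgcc
Scn2b: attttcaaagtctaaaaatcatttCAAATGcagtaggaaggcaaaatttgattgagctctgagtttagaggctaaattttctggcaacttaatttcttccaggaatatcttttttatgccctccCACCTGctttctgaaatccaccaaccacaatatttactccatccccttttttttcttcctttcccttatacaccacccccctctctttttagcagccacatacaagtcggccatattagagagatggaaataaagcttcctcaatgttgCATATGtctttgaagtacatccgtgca
Scn4b: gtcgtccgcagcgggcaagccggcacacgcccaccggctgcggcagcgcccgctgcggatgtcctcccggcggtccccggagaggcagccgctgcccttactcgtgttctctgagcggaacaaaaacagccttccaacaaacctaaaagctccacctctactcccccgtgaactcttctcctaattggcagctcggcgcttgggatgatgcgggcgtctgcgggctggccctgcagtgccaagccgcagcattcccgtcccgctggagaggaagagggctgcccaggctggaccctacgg
Kcnn4: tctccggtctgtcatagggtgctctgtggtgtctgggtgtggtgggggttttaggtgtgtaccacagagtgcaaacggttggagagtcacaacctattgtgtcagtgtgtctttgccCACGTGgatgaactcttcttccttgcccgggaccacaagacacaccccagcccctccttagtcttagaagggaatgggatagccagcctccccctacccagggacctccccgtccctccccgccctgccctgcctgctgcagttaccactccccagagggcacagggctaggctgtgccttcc

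The neighbouring promoters were unlike in base composition. That of Scn2b had 38.3% G and C, 2 CpG and 3 E-boxes, and that of Scn4b had 66.3% G and C, 26 CpG and 0 E-boxes. Kcne1l had 69.7% G and C and Kcnn4 59.7%, with 1 E-box each. Promoters were found for 27 of the 33 detected channel genes, 41 in all, with a median of 62.3% G and C and 12 CpG, beside 52.7% and 7 over all 32851 promoters of the table. An E-box stood in 68.3% of the 41 and in 72.3% of all. On both strands, with overlapping matches counted, the motif AGATAA, of the kind bound by Gata factors, stood in 0 of the 41 and 11.2% of all. The letters TATAAA stood in 3 of the 41 and 13.6% of all. The motif CATTCC, of the kind bound by Tead factors, stood in 6 of the 41, or 14.6%, and 14.7% of all. These are matches of letters in a short window and not measured binding.

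Hcn channels, which carry the pacemaker current, were not detected on either array for any of 3 genes. The single probe of Hcn4, the main such gene of the sinoatrial node, had a raw intensity of 45.0 in lacZ-positive cells (detection p-value 0.86) and 38.1 in total heart (detection p-value 0.99). Of the 5 genes of the sinoatrial node marker list, Hcn4 among them, 3 were detected, all within 2-fold. In all, 89 channel genes had no detected probe, and their 168 probes had raw intensities with a lowest, median and highest value of 39.1, 54.5 and 83.5 in lacZ-positive cells and 35.7, 49.5 and 73.1 in total heart. At a detection p-value under 0.05, 15 of the 89 would pass on at least 1 array, among them Kcnq1, Cacna1c, Hcn3 and Kcnh1. Kcnq1, the partner pore of Kcne1, had a brightest raw intensity of 73.6 in lacZ-positive cells and 62.1 in total heart. For these genes a low level and a poor probe cannot be told apart.

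Even the detected genes had silent probes, since 42 of their 87 probes were not detected. Of the 33 genes, 11 were read by more than 1 detected probe, and in 10 of these the measured ratios of all detected probes had the same sign. The lowest and highest ratio of a gene lay a median of 0.24 apart on the log2 scale, and 1.32 apart for Cacnb2, where the difference was greatest. Cacna2d1 was the gene with probes of both signs, at -0.03 and 0.34. The remaining 22 genes, among them Kcne1l, Kcne1, Cacnb4, Scn4b and Kcnn4, rested on 1 detected probe.

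**Figure D3:**
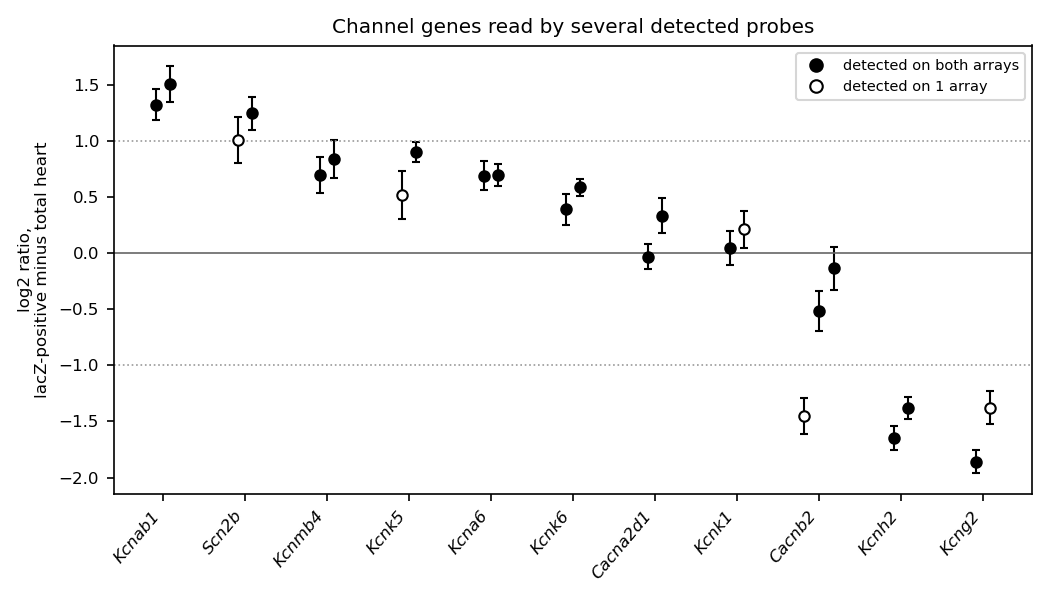
Log2 ratio of lacZ-positive cells over total heart (vertical axis, log2 units, with bead standard errors) for every detected probe of the 11 channel genes with more than 1 of them, filled where the probe was detected on both arrays. Both probes of Kcnab1 and both of Kcnh2 were detected on both arrays and lay past 2-fold, and those of Cacnb2 spread from -1.45 to -0.13.

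The noncoding Kcnq1ot1, transcribed from within the imprinted Kcnq1 locus, had raw intensities of 266 ± 10.0 in lacZ-positive cells and 152 ± 6.94 in total heart and a log2 ratio of 0.59 ± 0.11 (bead SE), within 2-fold. It is counted among the 33 genes but says nothing of channel protein.

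Genes whose products bind or regulate channels were also followed. Of 28 such partners listed, 26 were on the table and 16 were detected, with a median log2 ratio of -0.87. Of the 16, 0 were at least 2-fold higher and 8 lower, beside 3.82% and 6.44% of all genes analysed. Jph2, which tethers the sarcoplasmic reticulum to the cell membrane beside calcium channels, was 3.82-fold lower, with log2 signals of 7.26 in lacZ-positive cells and 9.19 in total heart. Popdc2, a membrane protein that binds cyclic AMP, was 3.34-fold lower, and its relatives Popdc3 and Bves 2.57-fold and 2.33-fold. Rrad, a small GTPase that inhibits L-type channels, was 3.03-fold lower, and Fgf13, a cytoplasmic modulator of sodium channels, 2.40-fold. Cav3, the muscle caveolin, was at least 2.63-fold lower and Lrrc10 2.28-fold. The highest of the list were Stac2 (at least 1.34-fold) and Rem2 at a log2 ratio of 0.20. The sarcomere markers, 12 of 16 of them lower, moved in the same direction, and their part in these values was not tested.

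Pumps and exchangers of the same ions gave 13 detected genes of 17 on the table, with a median of -0.47. Of the 13, 0 were at least 2-fold higher and 3 lower, beside 3.82% and 6.44% of all genes analysed. The calcium pump gene Atp2a2 of the sarcoplasmic reticulum was 3.05-fold lower, the sodium-calcium exchanger gene Slc8a1 2.53-fold and the sodium pump subunit gene Atp1b1 2.21-fold. The highest of the list were Fxyd6, a modulator of the sodium pump, at a log2 ratio of 0.73, Atp1b3, a relative of Atp1b1, at 0.29 and Fxyd5 at 0.05.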

How the data were processed

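RNA of lacZ-positive epicardial cells and of total heart was hybridised to 1 bead array each. Per the file headers, the main deposited table holds for each of 45281 probes a mean bead intensity, not normalized, its standard error over beads, a bead count and a detection p-value. The authors' processed intensity values in the series matrix were used as an alternative. They are on a linear scale, are not centred, rank the probes of each array as the raw intensities do, and have medians of 58.26 for lacZ-positive cells and 58.26 for total heart, and how they were made is not given in the sources used here. GenomeStudio is named in the submitters' processing notes, with no version. Gene names came from the platform annotation held by GEO, which gave 1 symbol to 34885 probes, several to 18 and none to 10378, and the last 2 kinds were not used. All 122 channel genes were found in the RefSeq gene table.

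Background was corrected with the normexp model from the detection p-values (nec, limma 3.58.1, R 4.3.3), with an offset of 16, followed by quantile normalization and log2. The steps were tested on simulated data. A gene was analysed if a probe had a detection p-value under 0.01 on at least 1 array, and the detected probe with the highest mean log2 signal stood for it. Bead errors were carried to the log2 scale and cover counting over beads only. Where an array was not well above background, "at least N-fold" sets the bright value against the higher of the dim value and the lowest detected signal. These bounds belong to the offset of 16 with quantile normalization and leave out bead error, so other settings can give smaller differences. For Scn4b the measured log2 ratio was -1.54 with the authors' processed values, against -2.18 at its bound. The members and lists, and 7 alternatives, were chosen with earlier results of these data known. The rule for naming took every detected channel gene, and examples from among the 3 highest, the 3 lowest and any gene past 2-fold of the lists of partners, pumps and other channels. An alternative with only probes detected on both arrays was chosen after seeing the data. No test between groups was possible.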

Additional observations from a re-analysis of the deposited data

How the results depend on the processing

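No paired analysis was possible because each group has 1 array, and no array could be left out. With no normalization between arrays the median log2 ratio of all genes analysed moved to 0.42, where it was 0.04, and with scale normalization to 0.34. With no normalization 8 channel genes were at least 2-fold higher. The medians were then 0.43 for potassium auxiliary and -0.48 for calcium subunits, where they were 0.07 and -0.87. Scale normalization gave a potassium auxiliary median of 0.35. An offset of 50 left 2 genes higher and 6 lower, and the authors' processed values likewise 2 and 6. A detection p-value under 0.05 gave 48 channel genes with a median of -0.032, beside 0.028 over all genes so analysed. Restricting to genes detected on both arrays, by any probe, left 19, with 5 lower and a median of -0.028, beside 0.037 over all such genes. One of the 5 was Cacnb2, through a probe detected in total heart only. The potassium auxiliary median, now without Kcnmb1, was 0.84. With only probes detected on both arrays, an alternative chosen after seeing the data, 4 were lower, Cacnb2 stood at -0.13, and both medians were again -0.028 and 0.84. Sodium subunits in both cases had too few genes for a median. The causes of the shifts were not tested. Over all genes analysed, 371 higher and 626 lower became 1020 and 381 with no normalization, 818 and 420 with scale normalization, 223 and 426 with the offset of 50, and 219 and 404 with the authors' processed values. Of 14 channel genes with measured ratios past 2-fold, 8 were past it in every setting that gave a value. Of these, Kcnn4 and Scn4b had no value in the settings that required detection on both arrays. The genes of the 14 under 2-fold in some setting were Kcnq5, Scn2b, Cacnb2, Kcnc4, Kcnk3 and Kcnmb1. The 8 alternatives gave 236 gene values, including those of genes within 2-fold, and 0 reversed a ratio past 2-fold. The detection p-value under 0.05 and detection on both arrays by any probe chose which genes entered and left each ratio unchanged. Cacna2d1 and Scn2a, both near 0, changed sign. Dim probes limit depth here, since a signal near background gives only a bound.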

Other observations

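Cation and anion channels outside the families above were detected for 27 of 67 genes, with a median log2 ratio of 0.27, or 0.07 with bounds. In lacZ-positive cells 3 were at least 2-fold higher and 4 lower, beside 3.82% and 6.44% of all genes analysed. The acid-sensing channel gene Asic1 was 3.33-fold higher, with log2 signals of 8.31 in lacZ-positive cells and 6.58 in total heart. The calcium-activated chloride channel gene Ano1 was 2.25-fold higher, and Trpm7, a magnesium-permeable channel fused to a kinase, at least 2.10-fold higher. Ano2, a relative of Ano1, went the other way, 5.18-fold lower, and so did Tmem38b, a cation channel of the endoplasmic reticulum, at 5.35-fold lower with log2 signals of 8.21 in lacZ-positive cells and 10.63 in total heart. The ryanodine receptor gene Ryr2 of cardiac muscle was 2.65-fold lower and the ATP-gated channel gene P2rx1 of platelets and smooth muscle 2.10-fold.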
